A study of Mus musculus with 22 samples.

Results

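Vitamin D and phosphate handling in the kidney was followed through 9 genes, taken by symbol from the 32858 genes listed: Cyp27b1 and Cyp24a1, which make and break down the active hormone, the receptors Vdr, Fgfr1, and Pth1r, the coreceptor Kl, and the phosphate transporters Slc34a1, Slc34a3, and Slc20a2. Each of the 9 genes had 1 row, and each passed the filter on low counts that left 17131 genes for testing. The set was put together with Cyp27b1 being highest in mice given both drugs as one of its terms, so the levels of Cyp27b1 are given as a description with no test, and tests are given for the other 8 genes. Kidney RNA came from 22 mice in 4 groups, all male C57Bl6/J animals of 8 to 10 weeks. The vehicle group (n = 5) received the carrier of 15% DMSO, 15% cremophor, and 70% saline, and the KW6002 group (n = 6) received KW6002, or istradefylline, an antagonist of the adenosine receptor encoded by Adora2a, at 3 mg/kg each day from day -5 to day 7. The cisplatin group (n = 5) received 6 daily intraperitoneal injections of cisplatin at 3 mg/kg from day 0, and the co-treated group (n = 6) received cisplatin and KW6002 on these schedules. Kidneys were taken 72 hours after the last cisplatin dose, on day 8, and each mouse gave 1 RNA-Seq library. The comparisons ask how the platinum drug altered these genes and how far the antagonist altered that outcome.

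In the kidney, 25-hydroxyvitamin D is carried to proximal tubule cells, where the mitochondrial enzyme encoded by Cyp27b1 converts it to calcitriol and the enzyme encoded by Cyp24a1 inactivates both forms. Calcitriol acts through the nuclear receptor Vdr, which raises Cyp24a1 and represses Cyp27b1. Parathyroid hormone, acting on Pth1r, raises Cyp27b1 and removes sodium-phosphate cotransporters from the brush border, whereas the bone hormone FGF23, acting on an FGF receptor together with Klotho, lowers both Cyp27b1 and the cotransporters.

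Libraries held 26471762 to 40510754 counts, with a median of 32721214.5, and values below are counts per 1000000 (CPM) after TMM scaling. Fold changes come from edgeR's quasi-likelihood test with Benjamini-Hochberg adjustment over all 17131 genes, read at an adjusted p below 0.05. Havcr1 (KIM1) and Lcn2 (NGAL), markers of tubular injury, averaged 2.10 and 3.90 CPM in vehicle mice and 583 and 1240 CPM in cisplatin mice. In co-treated mice they averaged 185 and 290 CPM. Against cisplatin their log2 fold changes there were -1.65 and -2.10 (adjusted p = 1.75e-05 and 6.04e-08, edgeR). All mice given cisplatin carry labels numbered in the 500s. The vehicle group has 3 mice in the 300s and 2 in the 500s, and the KW6002 group has 3 in each. Values within the 500s are therefore given where they differ in call, and they rest on 2 vehicle mice. One library stood apart by tissue content: replicate 6 of the co-treated group held 542 counts of Cyp11b1 and 508 counts of Cyp21a1, adrenal cortex enzymes, against at most 2 and 4 counts in the other 21 libraries. Other content also varied. Summed fat markers ran from 144 to 1259 CPM in vehicle, 61.9 to 543 in KW6002, 330.5 to 694 in cisplatin, and 38.2 to 334 in co-treated mice. Between cisplatin and co-treated mice, 4 of 5 fat, 4 of 5 fibroblast, and 3 of 7 macrophage markers fell and 1 macrophage marker rose. Over all tested genes 27.2% were lower and 28.6% higher in that comparison. The fibroblast sum ran from 499.8 to 622 CPM in cisplatin and 262 to 412 CPM in co-treated mice, and the macrophage sum from 212 to 255 and from 108 to 155 CPM. The part of these cells in the results below was not tested.

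Cyp27b1 (ENSMUSG00000006724, chr10:127048250-127053006 in mm10, plus strand), the 1α-hydroxylase, was highest in the co-treated kidneys, which is the value the set was chosen by. The 5 vehicle libraries read 19.1, 9.95, 15.4, 10.4, and 7.62 CPM, and the 6 KW6002 libraries ran from 8.01 to 11.5 CPM with a median of 9.10. The cisplatin libraries read 11.0, 10.7, 11.7, 10.2, and 31.1 CPM. Of the cisplatin values, 4 lay inside the vehicle range, and replicate 5 lay above all control libraries. The 6 co-treated libraries ran from 66.0 to 117 CPM with a median of 76.4, and none overlapped with any library of the other groups. Group means were 12.5 ± 4.65 CPM in vehicle (SD, n = 5), 9.44 ± 1.42 in KW6002 (SD, n = 6), 14.9 ± 9.07 in cisplatin (SD, n = 5), and 80.6 ± 18.7 in co-treated mice (SD, n = 6). The co-treated mean was 6.45 times the vehicle mean, 8.54 times the KW6002 mean, and 5.40 times the cisplatin mean. The co-treated library with adrenal RNA held the lowest Cyp27b1 value of its group, and the mean without it was 83.5 CPM.

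**Figure D1:**
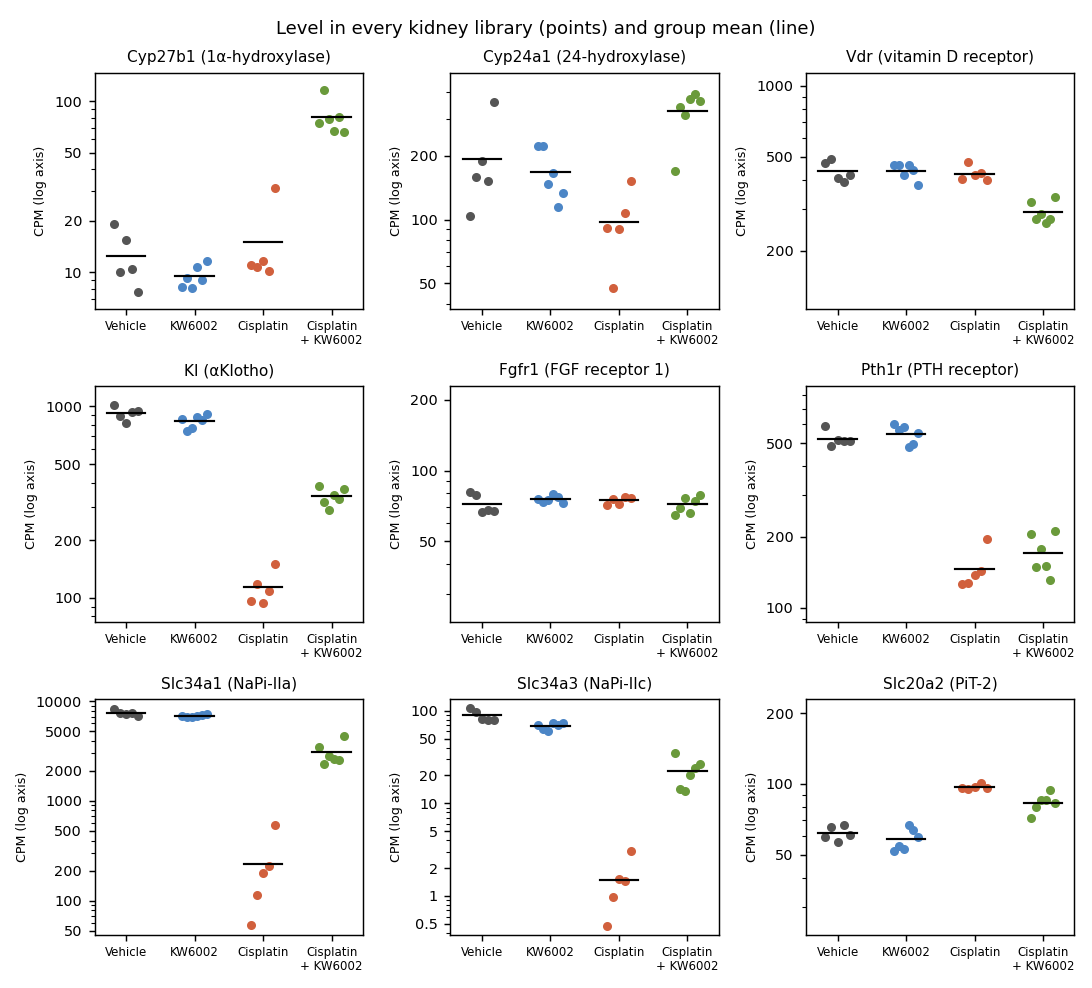
CPM of the 9 genes in every library on a log axis, with 1 point per mouse, the groups along the x axis, and a line at each group's mean. Cyp27b1 stands at 66.0 to 117 CPM in co-treated kidneys against 7.62 to 31.1 CPM elsewhere, while Kl, Slc34a1, and Slc34a3 are lowest in cisplatin kidneys and intermediate in co-treated kidneys.

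The promoter of Cyp27b1 is shown because this gene separated the co-treated kidneys from every other group. The window runs from 250 bases before to 50 bases after the RefSeq start, at chr10:127047996-127048295 in GRCm38.p6 on the plus strand, and the capitals mark a CCAAT box read on the opposite strand at positions -86 to -82 from the start.
Cyp27b1 promoter: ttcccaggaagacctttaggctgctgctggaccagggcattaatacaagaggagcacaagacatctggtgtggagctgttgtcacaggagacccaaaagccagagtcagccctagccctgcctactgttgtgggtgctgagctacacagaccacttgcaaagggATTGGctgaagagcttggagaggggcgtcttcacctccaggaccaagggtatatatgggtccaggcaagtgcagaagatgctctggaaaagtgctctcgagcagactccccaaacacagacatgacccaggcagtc
In all, 5 motifs, chosen after the sequences had been seen, were searched on both strands in the 32851 RefSeq promoter windows of this length. The TATA box was read as TATAAA and was found in 13.6% of all windows. The CCAAT box was found in 37.4% of them. The half-site of the cAMP response element was read as TGACG and was found in 20.8% of windows. For the liver and kidney factor HNF1 the half-site GTTAAT was found in 7.1% of windows. For nuclear receptors the half-site AGGTCA was found in 16.3% of windows. In the Cyp27b1 window the CCAAT box was the only match. A match describes the letters of the window and not a bound site.

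Cyp24a1 (ENSMUSG00000038567, chr2:170482708-170497145, minus strand), the 24-hydroxylase, fell with cisplatin and was higher in co-treated than in cisplatin mice. Vehicle libraries read 104, 159, 190, 152, and 361 CPM, and KW6002 libraries ran from 115 to 223 CPM with a median of 157. Cisplatin libraries read 91.3, 47.3, 90.5, 107, and 152 CPM. Replicates 4 and 5 of the cisplatin group reached into the vehicle range. Co-treated libraries ran from 170 to 394 CPM with a median of 352, and all lay above every cisplatin library. The log2 fold change was -0.98 ± 0.30 (SE, adjusted p = 0.00586, edgeR) for cisplatin against vehicle and 1.74 ± 0.30 (SE, adjusted p = 3.43e-05, edgeR) for co-treated against cisplatin. Without replicate 5 of the vehicle group, the highest vehicle library, the first of these was -0.63 (adjusted p = 0.0426, edgeR).

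Against vehicle, Cyp24a1 in co-treated mice was higher by 0.75 ± 0.29 on the log2 scale (adjusted p = 0.0281, edgeR), with overlapping ranges. That call was lost within the mice numbered in the 500s, where the log2 fold change was 0.34 (adjusted p = 0.450, edgeR), with the label series as a covariate (adjusted p = 0.0643, edgeR), and when any 1 of replicates 1, 2, and 4 of the vehicle group or replicates 4 and 5 of the co-treated group was left out (adjusted p from 0.0504 to 0.0836, edgeR). Within the 500s the interaction for Cyp24a1, described further on, was 2.64 in place of 1.94. Of the 2 vehicle mice in the 500s, 1 is replicate 5, the highest vehicle library for Cyp24a1 (361 CPM). Exons of Cyp24a1 overlap those of Pfdn4 on the other strand, and Pfdn4 held 8885 counts over all libraries against 142704 for Cyp24a1.

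The balance of the hormone-making and hormone-degrading enzymes was read per kilobase of exon within each library. The log2 ratio of Cyp27b1 to Cyp24a1 (CPM per kilobase) averaged -3.43 ± 1.12 in vehicle (SD, n = 5), -3.65 ± 0.49 in KW6002 (SD, n = 6), -2.30 ± 0.53 in cisplatin (SD, n = 5), and -1.52 ± 0.52 in co-treated mice (SD, n = 6). Cyp24a1 was thus the more abundant of the pair in every library, since the highest ratio, in a co-treated kidney, was -0.73. The highest vehicle ratio, -1.98, lay just inside the co-treated range (-2.002 to -0.73). The cisplatin range (-2.93 to -1.675) also overlapped with the co-treated range. No test is given, because Cyp27b1 is part of the ratio.

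Vdr (ENSMUSG00000022479, chr15:97854425-97910630, minus strand), the calcitriol receptor, was lower in co-treated kidneys than in all 3 other groups. Vehicle libraries read 470, 488, 405, 392, and 420 CPM, KW6002 libraries ran from 381 to 463 CPM with a median of 449, and cisplatin libraries read 403, 473, 417, 427, and 399 CPM. These 3 groups overlapped. Co-treated libraries ran from 262 to 338 CPM with a median of 278.5, below every other library. The log2 fold change of co-treated mice was -0.54 ± 0.07 against cisplatin (SE, adjusted p = 2.32e-06, edgeR) and -0.58 ± 0.07 against vehicle (SE, adjusted p = 7.63e-07, edgeR). For cisplatin against vehicle it was -0.04 ± 0.08 (SE, adjusted p = 0.683, edgeR). The sign turned without a call within the 500s (0.06) and with the label series as a covariate (0.03). With scaling by library size alone the log2 fold change was 0.18 (adjusted p = 0.0385, edgeR) while the median of all genes stood at 0.20. Vdr moved in the direction opposite to Cyp24a1 in the comparison of co-treated with cisplatin mice.

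Kl (ENSMUSG00000058488, chr5:150952607-150993817, plus strand) encodes Klotho, the coreceptor that gives FGF23 its affinity for FGF receptors, and is made mainly in the distal convoluted tubule and, at lower levels, in proximal cells. Vehicle libraries read 1021, 894, 824, 932, and 942 CPM, and KW6002 libraries ran from 743 to 911 CPM with a median of 856. Cisplatin libraries read 96.4, 118, 94.0, 109, and 150 CPM, and co-treated libraries ran from 288 to 382 CPM with a median of 336.5. The cisplatin, co-treated, and control ranges were fully separate. Kl fell 8.14-fold with cisplatin (log2 fold change -3.02 ± 0.11, SE, adjusted p = 4.74e-16, edgeR) and was 2.99-fold higher in co-treated than in cisplatin mice (1.58 ± 0.10, SE, adjusted p = 3.71e-11, edgeR). Co-treated mice stayed below vehicle by 2.72-fold (-1.45 ± 0.10, SE, adjusted p = 4.28e-11, edgeR).

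Fgfr1 (ENSMUSG00000031565, chr8:25513654-25575718, plus strand), an FGF receptor that pairs with Klotho, did not pass the test in any comparison. All 22 libraries lay between 64.6 and 80.7 CPM. The log2 fold change was 0.05 ± 0.06 for cisplatin against vehicle (SE, adjusted p = 0.488, edgeR) and -0.06 ± 0.06 for co-treated against cisplatin (SE, adjusted p = 0.414, edgeR). With scaling by library size alone the first of these was 0.26 (adjusted p = 0.000292, edgeR), against a median of all genes of 0.20 under that scaling.

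Pth1r (ENSMUSG00000032492, chr9:110722085-110747145, minus strand), the receptor of parathyroid hormone and its related peptide, fell in both groups given cisplatin. Vehicle libraries read 590, 484, 516, 511, and 512 CPM, and KW6002 libraries ran from 483 to 603 CPM with a median of 561. Cisplatin libraries read 126, 127, 138, 143, and 196 CPM, and co-treated libraries ran from 131 to 212 CPM with a median of 164. Both cisplatin-treated groups lay below all controls and overlapped with each other. The log2 fold change was -1.84 ± 0.13 for cisplatin against vehicle (SE, adjusted p = 1.39e-11, edgeR) and -1.61 ± 0.12 for co-treated against vehicle (SE, adjusted p = 1.55e-10, edgeR). For co-treated against cisplatin it was 0.22 ± 0.12 (SE, adjusted p = 0.114, edgeR), and it passed the threshold without replicate 5 of the cisplatin group (0.35, adjusted p = 0.00858, edgeR) or without replicate 5 of the co-treated group (0.29, adjusted p = 0.0381, edgeR). The call for Pth1r in that comparison thus depended on which library was left out.

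Slc34a1 (ENSMUSG00000021490, chr13:55398187-55415592, plus strand) encodes NaPi-IIa, the main sodium-phosphate cotransporter of the proximal tubule brush border. Vehicle libraries read 8404, 7554, 7357, 7546, and 7063 CPM, and KW6002 libraries ran from 6920 to 7350 CPM with a median of 7118. Cisplatin libraries read 57.0, 114, 188, 222, and 573 CPM, a span of about an order of magnitude within 1 group. Co-treated libraries ran from 2341 to 4518 CPM with a median of 2750, above all cisplatin and below all control libraries. Slc34a1 fell 32.9-fold with cisplatin (log2 fold change -5.04 ± 0.41, SE, adjusted p = 2.32e-10, edgeR) and was 13.3-fold higher in co-treated than in cisplatin mice (3.73 ± 0.38, SE, adjusted p = 3.19e-08, edgeR). Without replicate 5 of the cisplatin group these were -5.71 and 4.40. Against vehicle, co-treated mice were lower by a log2 fold change of -1.31 ± 0.33 (SE, adjusted p = 0.00187, edgeR).

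Slc34a3 (ENSMUSG00000006469, chr2:25228898-25234364, minus strand), which encodes the related brush border cotransporter NaPi-IIc, followed the same order of groups at a lower level. Vehicle libraries read 107, 97.3, 82.4, 80.2, and 79.5 CPM, and KW6002 libraries ran from 60.4 to 74.0 CPM with a median of 70.1. Cisplatin libraries read 0.480, 0.980, 1.52, 1.45, and 3.06 CPM, and co-treated libraries ran from 13.5 to 35.2 CPM with a median of 22.2. No 2 groups overlapped. Slc34a3 fell 60.2-fold with cisplatin (log2 fold change -5.91 ± 0.30, SE, adjusted p = 7.19e-14, edgeR), the 54th lowest value of 17131 genes, and was 15.1-fold higher in co-treated than in cisplatin mice (3.92 ± 0.29, SE, adjusted p = 2.58e-10, edgeR). Co-treated mice stayed below vehicle by 3.99-fold (adjusted p = 6.79e-08, edgeR).

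The promoters of both NaPi genes are shown because these genes changed most among the 8 tested. The Slc34a1 window lies at chr13:55399398-55399697 (GRCm38.p6, plus strand), inside the span that GENCODE gives the gene, and the Slc34a3 window at chr2:25234185-25234484 (minus strand). In Slc34a1 the capitals mark GTTAAT at -61 to -56, the same letters on the opposite strand at -89 to -84, and TATAAA at 17 to 22. In Slc34a3 they mark CCAAT at -250 to -246 and AGGTCA at -33 to -28 and, on the opposite strand, at -6 to -1.
Slc34a1 promoter: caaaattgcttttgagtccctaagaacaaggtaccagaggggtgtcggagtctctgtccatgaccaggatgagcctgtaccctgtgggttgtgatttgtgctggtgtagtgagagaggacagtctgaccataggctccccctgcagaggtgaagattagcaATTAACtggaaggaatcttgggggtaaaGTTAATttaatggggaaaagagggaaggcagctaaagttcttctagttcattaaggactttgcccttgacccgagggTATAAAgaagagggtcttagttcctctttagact
Slc34a3 promoter: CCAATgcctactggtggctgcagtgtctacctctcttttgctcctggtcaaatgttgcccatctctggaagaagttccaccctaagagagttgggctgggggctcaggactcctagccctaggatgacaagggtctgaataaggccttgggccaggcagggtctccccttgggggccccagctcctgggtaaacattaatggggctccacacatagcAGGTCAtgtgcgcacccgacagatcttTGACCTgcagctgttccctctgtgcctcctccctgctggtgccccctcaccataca
The motifs marked did not overlap one another, and the windows of the pair shared none of the 5 motifs. RefSeq windows were at hand for 6 of the 9 genes, the others being Kl, Pth1r, and Vdr, and those of Cyp24a1, Slc20a2, and Fgfr1 were not analysed here.

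Slc20a2 (ENSMUSG00000037656, chr8:22476788-22569612, plus strand), which encodes the type III cotransporter PiT-2, was the 1 tested gene that rose with cisplatin. Vehicle libraries read 59.8, 65.8, 56.8, 67.0, and 60.5 CPM, and KW6002 libraries ran from 52.0 to 67.3 CPM with a median of 57.1. Cisplatin libraries read 95.8, 95.6, 97.4, 101, and 96.6 CPM, and co-treated libraries ran from 71.8 to 94.5 CPM with a median of 84.1, between the control and cisplatin ranges and overlapping neither. The log2 fold change was 0.65 ± 0.07 for cisplatin against vehicle (SE, adjusted p = 2.83e-08, edgeR) and -0.22 ± 0.07 for co-treated against cisplatin (SE, adjusted p = 0.00722, edgeR). Co-treated mice stayed above vehicle by 0.43 ± 0.07 (SE, adjusted p = 1.38e-05, edgeR). Exons of Slc20a2 overlap those of Smim19 on the other strand, which held 13115 counts against 54228, and Smim19 went the other way with cisplatin (log2 fold change -0.52, adjusted p = 2.46e-05, edgeR).

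The order of these genes by level, in CPM per kilobase of exon, differed between groups. In vehicle kidneys Slc34a1 led with 1622 ± 107, followed by Pth1r (179 ± 13.6), Kl (98.9 ± 7.74), Vdr (77.0 ± 7.43), Cyp24a1 (54.2 ± 27.8), Slc34a3 (37.9 ± 5.23), Slc20a2 (9.97 ± 0.69), Fgfr1 (7.32 ± 0.69), and Cyp27b1 (4.85 ± 1.81), each as mean and SD over 5 libraries. Ranges of Cyp24a1 overlapped with those of its neighbours Vdr and Slc34a3, and Cyp27b1 overlapped with Fgfr1. In cisplatin kidneys Vdr (75.0 ± 5.24) had the highest mean, and Pth1r (43.2 to 67.1) and Slc34a1 (12.2 to 122.6) followed. The Slc34a1 range spanned those of Pth1r and Vdr (70.7 to 83.7). Slc34a3 (0.63 ± 0.41) was last in that group. In co-treated kidneys Slc34a1 led again with 655 ± 172 over 6 libraries, Cyp24a1 (91.4 ± 22.7) stood next by mean, and Cyp27b1 reached 31.3 ± 7.28. The Cyp24a1 range there (47.8 to 110.5) overlapped with those of Pth1r (44.8 to 72.4) and Vdr (46.4 to 59.8).

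Within a library, the balance of the 2 NaPi genes also differed. The log2 ratio of Slc34a3 to Slc34a1 (CPM per kilobase) was -5.43 ± 0.12 in vehicle (SD, n = 5), -5.71 ± 0.09 in KW6002 (SD, n = 6), -6.12 ± 0.30 in cisplatin (SD, n = 5), and -6.15 ± 0.42 in co-treated mice (SD, n = 6). The vehicle range (-5.57 to -5.29) lay above those of cisplatin (-6.56 to -5.87) and co-treated mice (-6.73 to -5.63), which overlapped. It also lay above the KW6002 range (-5.85 to -5.59), and the KW6002 and co-treated ranges overlapped. The ratio of Slc20a2 to Slc34a1 was -7.35 ± 0.14 in vehicle and -1.24 ± 1.22 in cisplatin mice, and in 1 cisplatin library it reached 0.34, so that PiT-2 mRNA exceeded NaPi-IIa mRNA per kilobase there.

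Taking the 8 tested genes as a list, cisplatin against vehicle gave 5 lower (Cyp24a1, Kl, Slc34a1, Slc34a3, and Pth1r), where 35.9% of all tested genes were lower, and 1 higher (Slc20a2), where 34.6% of all genes were higher. The median log2 fold change was -1.41 over the 8 genes and -0.01 over all genes. Co-treated against cisplatin gave 4 higher (Cyp24a1, Kl, Slc34a1, and Slc34a3; 28.6% of all genes) and 2 lower (Vdr and Slc20a2; 27.2% of all genes), with a median of 0.90 against 0.01 over all genes. Co-treated against vehicle gave 5 lower (Vdr, Kl, Slc34a1, Slc34a3, and Pth1r; 29.9% of all genes) and 2 higher (Cyp24a1 and Slc20a2; 29.8% of all genes). The 3 comparisons share groups with one another, and the 2 higher genes in the last fell to 1 when Cyp24a1 lost its call as above. Within the 500s, the 5 lower genes with cisplatin and the 4 higher genes in co-treated mice were the same genes.

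**Figure D2:**
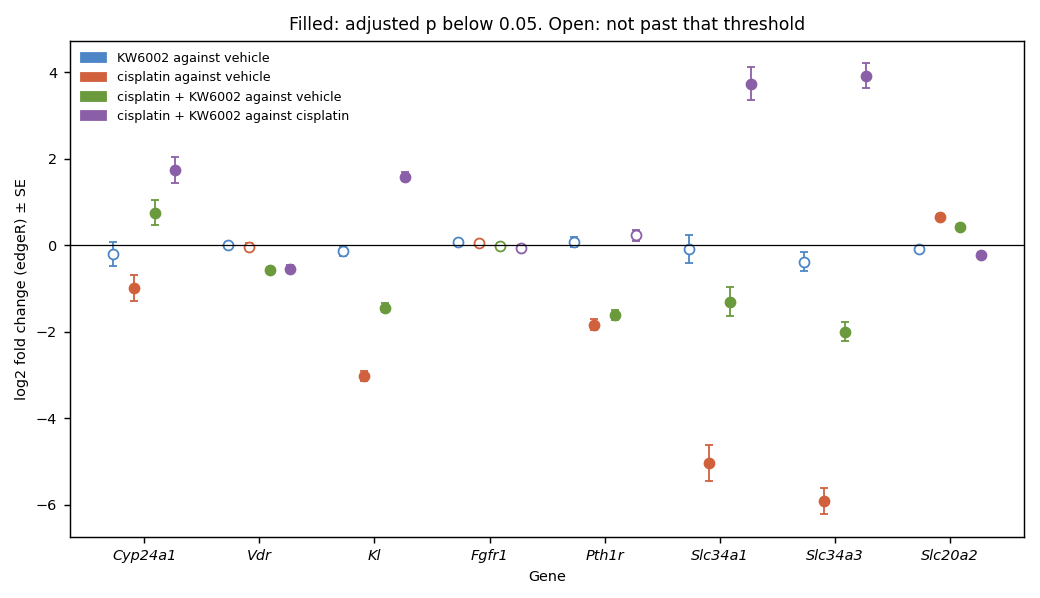
Log2 fold change with its standard error (edgeR, y axis) for the 8 tested genes (x axis) in 4 comparisons shown by colour, filled where the adjusted p was below 0.05. The NaPi genes reach -5.04 and -5.91 with cisplatin and 3.73 and 3.92 for co-treated against cisplatin, and every KW6002 against vehicle value is open.

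KW6002 given without cisplatin called none of the 8 genes. With edgeR, 0 were higher (0.0175% of all genes) and 0 were lower (0.0% of all genes), 0 of the 8 reached an unadjusted p below 0.05, and DESeq2 also called 0. Over all genes edgeR called 3 higher and 0 lower, with 938 higher and 992 lower at an unadjusted p below 0.05, whereas DESeq2 called 46 higher and 53 lower. The nearest to a call was Slc34a3, for which all 6 KW6002 libraries lay below all 5 vehicle libraries, with a log2 fold change of -0.38 ± 0.21 (SE, adjusted p = 0.506, edgeR). Within the 500s that value was -0.14.

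The interaction, that is the KW6002 effect with cisplatin minus the KW6002 effect without it, was positive for 4 genes (22.8% of all genes were called positive) and negative for 1 (19.9% of all genes). It was 4.30 ± 0.36 for Slc34a3 (adjusted p = 7.17e-09, edgeR), 3.82 ± 0.49 for Slc34a1 (adjusted p = 2.01e-06, edgeR), 1.94 ± 0.41 for Cyp24a1 (adjusted p = 0.000559, edgeR), and 1.72 ± 0.14 for Kl (adjusted p = 5.27e-09, edgeR) on the log2 scale. For Vdr it was -0.54 ± 0.11 (adjusted p = 0.000269, edgeR). Slc20a2, Fgfr1, and Pth1r did not pass, with -0.14 ± 0.10, -0.12 ± 0.08, and 0.16 ± 0.17.

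The nephron segments that use these genes were read through marker lists written out with earlier results known. All 8 markers of proximal tubule S1 and S2 and 5 of 6 markers of S3 fell with cisplatin, where 35.9% of all tested genes were lower. The summed S1 and S2 level ran from 5183 to 6120 CPM in vehicle, 4619 to 5265 in KW6002, 1575 to 2248 in cisplatin, and 3026 to 4046 in co-treated mice. The summed S3 level ran from 2123 to 3648, 2757 to 4179, 505 to 652, and 547 to 823 CPM in the same order. In whole kidney RNA, fewer cells of a segment and less of a transcript per cell cannot be told apart. The S1 and S2 sum thus moved with the NaPi genes in both steps, while the S3 sum fell with cisplatin and overlapped between cisplatin and co-treated mice. Atp11a made up 408 of the mean 550 CPM of the S3 sum in cisplatin mice and did not pass in that comparison (log2 fold change 0.04, adjusted p = 0.853, edgeR). Of the 6 S3 markers, 4 were higher and 1 was lower in co-treated against cisplatin mice, where 28.6% of all tested genes were higher and 27.2% lower. Single S3 markers fell as far as the NaPi genes did, with log2 fold changes of -7.08 for Slc7a13 and -5.01 for Slc22a7 with cisplatin. The part of these changes in the gene results was not tested.

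Relative to the summed level of the 14 proximal tubule markers in the same library, the NaPi genes were still lower in cisplatin mice, without overlap. The log2 ratio of Slc34a1 to these markers differed by -3.61 between cisplatin and vehicle, and that of Slc34a3 by -4.29. Between co-treated and cisplatin mice the ratios differed by 3.36 and 3.32, also without overlap. In co-treated mice the Slc34a1 ratio overlapped with vehicle (difference -0.25), whereas the Slc34a3 ratio stayed lower (difference -0.97). With S1 and S2 markers alone the co-treated Slc34a1 ratio did not overlap with vehicle (difference -0.64).

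On the same relative scale Pth1r overlapped between cisplatin and vehicle (difference -0.01) and was lower in co-treated mice than in either group, by -0.53 and -0.54. Cyp27b1, as a description, differed by 2.03 between cisplatin and vehicle and by a further 1.81 between co-treated and cisplatin mice, with no overlap in either step. In mean log2 CPM the first step was 0.18, with overlapping ranges, and the second was 2.55, without overlap. Vdr was higher relative to these markers in cisplatin than in vehicle mice (difference 1.81), as were Slc20a2 (difference 2.5) and Fgfr1 (difference 1.90), all without overlap. In CPM, Vdr and Fgfr1 were not called in that comparison (log2 fold changes -0.04 and 0.05), and Slc20a2 rose by 0.65. The marker sums that form the denominator fell, from means of 5532 to 1854 CPM for S1 and S2 and of 3054 to 550 CPM for S3. A higher ratio here is thus not by itself a higher level of the gene. Cyp24a1 turned direction on this scale, with a difference of 0.90 between cisplatin and vehicle and 1.03 between co-treated and cisplatin mice, and both pairs of ranges overlapped. Kl was lower relative to the proximal markers in cisplatin than in vehicle mice (difference -1.20) and lower in co-treated than in vehicle mice (difference -0.35, or -0.75 with S1 and S2 markers alone), each without overlap. For Kl, the 5 distal convoluted tubule markers were taken as a second denominator after the data had been seen, and these fell from 2238 to 2501 CPM in vehicle to 382 to 403 CPM in cisplatin mice and read 482 to 769 CPM in co-treated mice. The Kl result depended on this choice: relative to the distal markers Kl overlapped between cisplatin and vehicle (difference -0.47) and was higher in co-treated mice than in vehicle without overlap (difference 0.54). Few genes carried each sum in cisplatin mice. Wnk1 made up 296.5 of the mean 396 CPM of the distal sum and fell by 1.09 on the log2 scale, whereas Slc12a3 fell by 4.59. The largest parts of the proximal sum were Hnf4a (653 CPM), Slc22a6 (579 CPM), and Atp11a (408 CPM).

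**Figure D3:**
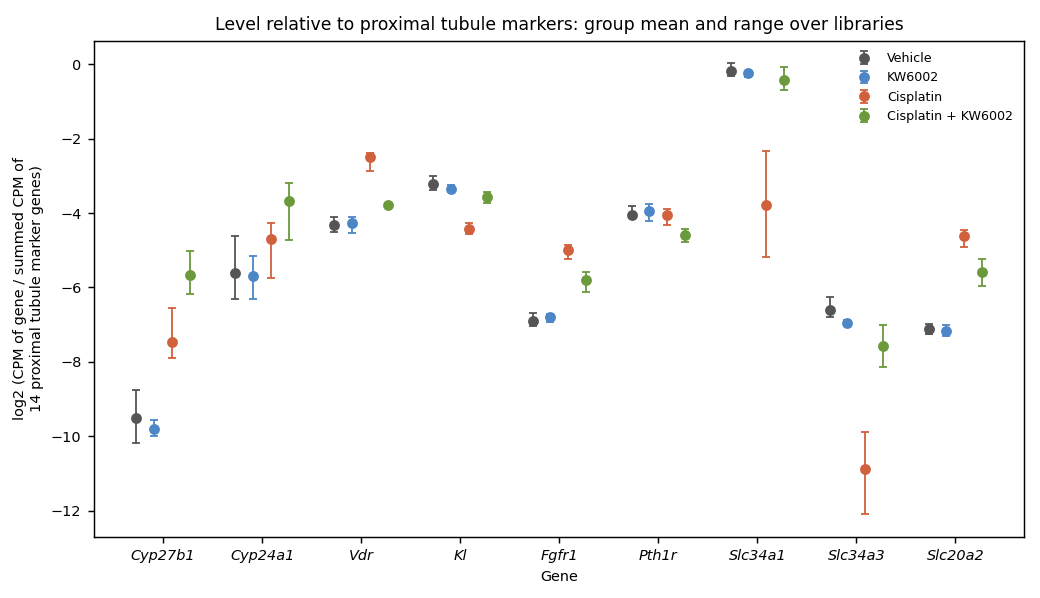
Log2 ratio of each gene's CPM to the summed CPM of 14 proximal tubule markers in the same library (y axis), as group mean (point) and range over libraries (bar). Cisplatin minus vehicle is -3.61 for Slc34a1 and -4.29 for Slc34a3, while Cyp27b1 stands higher by steps of 2.03 and 1.81 from vehicle to cisplatin to co-treated kidneys. In mean log2 CPM these Cyp27b1 steps are 0.18, with overlapping ranges, and 2.55. The marker sum itself is lower in cisplatin than in vehicle kidneys.

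Vitamin D supply was covered by 9 listed genes, of which 8 were tested. With cisplatin 6 were lower and 2 were higher, where 35.9% of all tested genes were lower and 34.6% higher. In co-treated against cisplatin mice 4 were higher and 2 were lower, where 28.6% of all tested genes were higher and 27.2% lower. The list median was -0.76 with cisplatin and 0.35 for co-treated against cisplatin. Lrp2 (megalin), which takes up filtered vitamin D with its binding protein, averaged 3637 ± 336 CPM in vehicle, 575 ± 103 in cisplatin, and 1477 ± 206 in co-treated mice (SD), with log2 fold changes of -2.66 with cisplatin and 1.36 for co-treated against cisplatin (adjusted p = 9.36e-15 and 1.07e-09, edgeR). Its partner Cubn (cubilin) fell by 1.36 and Dhcr7, which diverts the vitamin D precursor to cholesterol, fell by 1.11 on the log2 scale with cisplatin. Gc, the vitamin D binding protein that is otherwise a liver product, went the other way, from 45.9 ± 9.86 CPM in vehicle to 1062 ± 59.0 in cisplatin and 549 ± 137 in co-treated mice (SD), with log2 fold changes of 4.53 and -0.95 (adjusted p = 5.14e-15 and 2.98e-05, edgeR).

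Among 11 partners of Vdr and vitamin D responsive calcium genes, all tested, 9 were lower and 1 was higher with cisplatin, and 6 were higher and 1 was lower in co-treated against cisplatin mice, against the shares of all genes just given (35.9% lower and 34.6% higher, then 28.6% higher and 27.2% lower). The list medians were -0.33 and 0.18. The calcium channel Trpv5 averaged 23.4 ± 2.67 CPM in vehicle, 7.49 ± 2.00 in cisplatin, and 23.7 ± 3.03 in co-treated mice (SD). Calb1 (calbindin) averaged 368 ± 78.2, 65.8 ± 26, and 195 ± 27.5 CPM, and the sodium-calcium exchanger Slc8a1 36.6 ± 4.72, 6.64 ± 1.45, and 17.1 ± 3.05 CPM. Trpv6, the related calcium channel, was the gene that rose, from 1.89 ± 0.24 CPM to 7.88 ± 0.89 with cisplatin and 8.34 ± 0.83 in co-treated mice (log2 fold change 2.06 with cisplatin, adjusted p = 3.23e-12, edgeR). The 5 distal convoluted tubule markers given above fell with cisplatin, as Trpv5, Calb1, and Slc8a1 did. In co-treated against cisplatin mice 2 of these 5 were higher, where 28.6% of all tested genes were higher, with a list median of 0.15. The 2 were Slc12a3 and Pvalb, higher by 1.88 and 1.82 on the log2 scale, though Pvalb averaged only 0.09 CPM in cisplatin mice. Trpm6, Klhl3, and Wnk1 did not pass (0.14, 0.15, and 0.12). Trpv5, Calb1, and Slc8a1 were higher by 1.66, 1.57, and 1.36 on the log2 scale in that comparison. The part of the distal tubule in these results was not tested.

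All 9 phosphate transporters and scaffolds outside the set were tested, and 6 were lower and 3 were higher with cisplatin, while 5 were higher and 2 were lower in co-treated against cisplatin mice. The 3 higher and the 2 lower genes were near the 34.6% and 27.2% of all genes, and the other counts stood against 35.9% lower and 28.6% higher. The list medians were -0.70 and 0.21. Slc34a2 (NaPi-IIb), the intestinal and lung cotransporter, rose from 5.14 ± 0.61 CPM in vehicle to 58.5 ± 8.76 in cisplatin mice and stood at 31.9 ± 7.09 in co-treated mice (SD, log2 fold change 3.51 with cisplatin, adjusted p = 2.33e-15, edgeR). Slc20a1 (PiT-1) rose as Slc20a2 did, from 52.7 ± 7.80 to 122 ± 6.11 and 91.3 ± 9.11 CPM. The scaffold Slc9a3r1 (NHERF1), which holds NaPi-IIa at the brush border, averaged 273.5 ± 16.5, 152 ± 19.2, and 322 ± 18.4 CPM, so that co-treated mice were above vehicle (log2 fold change 0.24, adjusted p = 0.00538, edgeR). Pdzk1, another scaffold, averaged 1350.0 ± 97.7, 456 ± 75.0, and 598 ± 101 CPM, and Slc17a3 fell to 204 ± 13.4 CPM in cisplatin mice and was not different in the test between co-treated and cisplatin mice (log2 fold change -0.05, adjusted p = 0.671, edgeR).

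Of 15 genes of FGF23 and Klotho signalling, 12 were tested, and 6 were higher and 3 were lower with cisplatin, while 2 were higher and 5 were lower in co-treated against cisplatin mice. Over all genes these shares were 34.6% and 35.9%, then 28.6% and 27.2%, so the list is given as a description. The list medians were 0.15 and -0.20. The ligand Fgf23 had 5 counts over all 22 libraries and at most 2 in 1 library. Fgfr4 fell from 46.5 ± 2.42 to 14.2 ± 1.38 CPM with cisplatin and stood at 33.0 ± 1.55 in co-treated mice, whereas Fgfr2 rose from 21.1 ± 2.29 to 39.4 ± 4.07 CPM and stood at 28.9 ± 4.14. Egr1, an immediate early gene induced by FGF23 among many signals, rose from 8.49 ± 3.00 to 248 ± 58.6 CPM with cisplatin and averaged 154 ± 73.6 in co-treated mice, for which the difference from cisplatin did not pass (log2 fold change -0.69, adjusted p = 0.0723, edgeR). Fam20c, a kinase that phosphorylates FGF23, averaged 49.6 ± 5.85, 28.4 ± 2.86, and 37.1 ± 4.27 CPM.

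Of 12 genes of parathyroid hormone signalling, 9 were tested, and 5 were higher and 2 were lower with cisplatin, while 1 was higher and 6 were lower in co-treated against cisplatin mice. All genes gave 34.6% higher and 35.9% lower, then 28.6% higher and 27.2% lower. The list medians were 0.21 and -0.17. The related peptide gene Pthlh had 50 counts over all libraries and at most 7 in 1 library, and Pth was not analysed here. Casr, the calcium-sensing receptor, fell from 68.5 ± 6.75 CPM in vehicle to 8.09 ± 1.08 in cisplatin mice and stood at 22.6 ± 3.01 in co-treated mice (log2 fold change -3.08 with cisplatin, adjusted p = 1.64e-16, edgeR). Downstream of the receptors, Gna11, a G protein subunit, averaged 87.1 ± 4.01, 136 ± 11.6, and 111 ± 2.95 CPM, and the kinase Sik1 averaged 109 ± 14.7, 152 ± 9.71, and 140 ± 18.1 CPM. The adenylyl cyclases moved apart with cisplatin, Adcy6 higher (217 ± 18.6 to 263 ± 14.2 CPM) and Adcy9 lower (18.4 ± 0.95 to 14.8 ± 1.55 CPM).

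Of 8 factors known to act on Cyp27b1 transcription, all were tested, and 5 were higher and 2 were lower with cisplatin, while 2 were higher and 2 were lower in co-treated against cisplatin mice. The last 2 counts were near the 28.6% and 27.2% of all genes, and the first 2 stood against 34.6% and 35.9%. The list medians were 0.27 and -0.05. Crtc2 and Sik3 were the genes that were higher in co-treated mice. Crtc2, a CREB coactivator, averaged 50.3 ± 0.87 CPM in vehicle, 59.1 ± 2.94 in cisplatin, and 75.7 ± 4.98 in co-treated mice (log2 fold change 0.36 against cisplatin, adjusted p = 8.74e-07, edgeR), and Sik3, a kinase that retains Crtc proteins in the cytoplasm, averaged 122 ± 6.17, 106.5 ± 2.89, and 143 ± 5.58 CPM (0.42, adjusted p = 1.67e-06, edgeR). The related kinase Sik2 was lower in co-treated than in cisplatin mice (-0.35, adjusted p = 0.00475, edgeR). Nr4a1, Nr4a2, and Cebpb rose with cisplatin by 3.55, 1.94, and 2.43 on the log2 scale and did not pass for co-treated against cisplatin (-0.37, 0.71, and -0.11). None of the 6 lists had a gene called for KW6002 against vehicle.

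**Figure D4:**
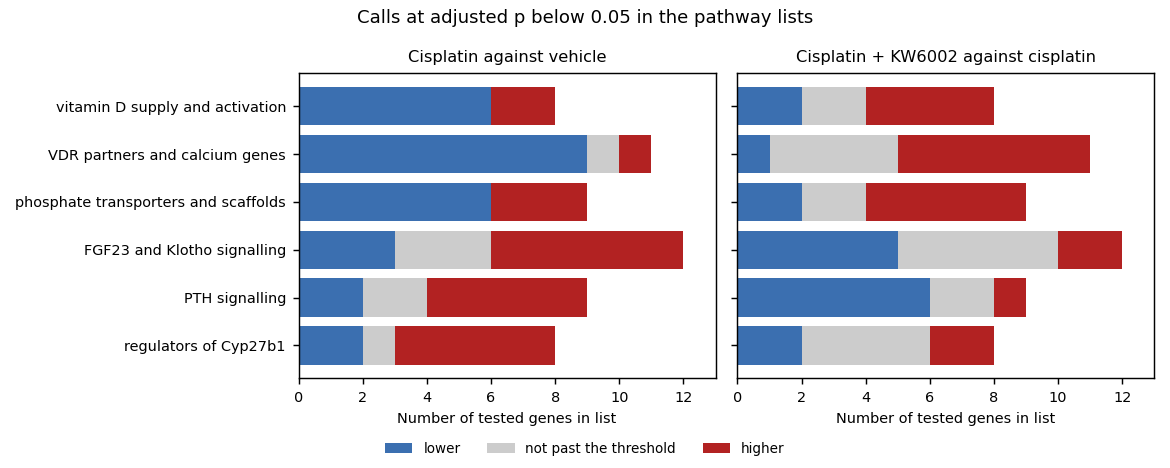
Number of tested genes (x axis) in each of the 6 pathway lists called lower, called higher, or left uncalled by edgeR, for 2 comparisons. From top to bottom, lower calls with cisplatin numbered 6, 9, 6, 3, 2, and 2. Higher calls numbered 2, 1, 3, 6, 5, and 5. The lists held 8, 11, 9, 12, 9, and 8 tested genes. Of all tested genes 35.9% were lower and 34.6% higher with cisplatin.

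Genes whose log2 CPM ran most like the members over the 22 libraries were sought among 14097 genes with a mean of at least 1 CPM, as a description over libraries that share 4 treatments. For Cyp27b1 these were Irgm1 (Pearson r = 0.94), an interferon-induced GTPase, Stra6l (0.93), Gpatch4 (0.93), Lgmn (0.93), and Irgm2 (0.92). They were picked for running like Cyp27b1, which was itself chosen for being highest in co-treated mice. That each had its highest group mean there follows from this choice and is no separate result. Irgm1 averaged 141 CPM in co-treated mice against 54.0, 54.2, and 60.4 CPM in vehicle, KW6002, and cisplatin mice. Vdr ran most like Col27a1 (0.95), which averaged 217 CPM in vehicle and 52.5 CPM in co-treated mice. Slc34a1 ran with Akr1c21 (0.99), and Slc34a3 with Miox (0.995), Cltrn (0.995), and Slc5a2 (0.994), which are proximal tubule genes. Slc20a2 ran with Lpin3 (0.97), Prrg4 (0.97), and the metallothionein Mt1 (0.97), and Pth1r with Inmt (0.99) and Pdzk1 (0.99). Cyp24a1 ran with Gripap1 (0.90), and for Fgfr1 the highest value was 0.69 (Gm5335).

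Within the cisplatin group, replicate 5 held the highest value for 6 of the 9 genes, namely Cyp27b1, Cyp24a1, Kl, Slc34a1, Slc34a3, and Pth1r. Its summed proximal tubule S1 and S2 level, 2248 CPM, and its S3 level, 652 CPM, were also the highest of that group. Within the co-treated group, the library with adrenal RNA held the highest Slc34a1, Vdr, Fgfr1, and Pth1r values. Without it, co-treated against cisplatin gave log2 fold changes of 3.59 for Slc34a1, 3.85 for Slc34a3, 1.55 for Kl, and 1.70 for Cyp24a1, and each kept an adjusted p below 0.05.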

How the data were processed

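The authors sequenced stranded mRNA libraries of 22 kidneys, aligned reads to mm10, kept unique alignments, and counted them with HTSeq-count 0.6.1p1 on Ensembl genes. Whether strand was used in counting is not given in the sources used here. The deposited values are raw counts per gene, not normalized. A further 66 unnamed empty columns were not used. Symbols, positions, exon lengths, and overlaps came from GENCODE M21 of the same build, which named 32824 of 32858 genes, the other 34 holding 0.00459% of counts. Promoters came from RefSeq (GRCm38.p6).

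Genes were filtered by filterByExpr (10 counts at the median library size in at least 5 libraries, 15 in all), scaled by TMM, and tested in edgeR 4.0.16 (R 4.3.3), with 1 mean per group, no covariate, and Benjamini-Hochberg adjustment. The fitting was tested on simulated data. Each library is 1 mouse, and no pair of libraries agreed within counting noise. A count of 0 allows up to 3 counts in that library, counting error only. Log2 CPM for likeness used a prior count of 2. Alternatives were DESeq2 1.42.0, other scalings and filters, a fit to each pair of groups alone, a replicate block, the label series as a covariate, a stricter threshold, and each library left out. The members, lists, and tests were chosen with earlier results of these data known. All members were named. From each pathway list the 4 genes with the largest change with cisplatin and the 2 with the largest change for co-treated against cisplatin were named, among those called with a mean of at least 1 CPM, with the ligands Fgf23, Pth, and Pthlh, and for likeness the 5 genes nearest to Cyp27b1 and the 3 nearest to each other member, of which some are printed and the result for Kl is not reported here.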

Additional observations from a re-analysis of the deposited data

Results flagged for a closer look

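Among the 36 combinations of a member and a group that were checked for a library far from the rest of its group, 4 were flagged, where chance gives about 1 in 20. Replicate 5 of the cisplatin group held 31.1 CPM of Cyp27b1 and 196 CPM of Pth1r, each the highest of its group by a wide gap. Replicate 2 of the co-treated group held 117 CPM of Cyp27b1, the highest of its group, and replicate 1 of the co-treated group held 170 CPM of Cyp24a1, the lowest of its group.

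For 5 genes the KW6002 effect with cisplatin differed from that without it in edgeR's test of the difference itself. Such a call was common, with 22.8% of all tested genes called positive and 19.9% negative. The difference was 4.30 for Slc34a3, 3.82 for Slc34a1, 1.94 for Cyp24a1, 1.72 for Kl, and -0.54 for Vdr on the log2 scale.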

How the results depend on the processing

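Of the log2 fold changes of the 8 tested genes under all alternatives, 1219 kept their side of the threshold, 4 passed it newly, 7 lost it, and 2 reversed. A reversal here is a change of sign with a call in at least 1 of the 2 fits compared. The 1219 include values that changed sign with no call in either fit, such as Vdr for cisplatin against vehicle within the 500s (0.06). Both reversals came with scaling by library size alone, which shifted the median of all genes by 0.20 for cisplatin and 0.16 for co-treated against vehicle: Vdr for cisplatin against vehicle (0.18, adjusted p = 0.0385, edgeR) and Fgfr1 for co-treated against vehicle (0.15, adjusted p = 0.0252, edgeR). Under that scaling 3 genes were higher with cisplatin (Fgfr1, Slc20a2, and Vdr) and 2 had a negative interaction (Fgfr1 and Vdr). The 2 genes higher in co-treated than in vehicle mice became 1 with the label series as a covariate and 1 within the 500s, and ran from 1 to 2 with single libraries left out, Cyp24a1 being the gene lost. Under the stricter threshold (0.01 for the adjusted p, and at least 1 in log2 size) there were 0 higher genes with cisplatin, 0 lower for co-treated against cisplatin, 0 higher for co-treated against vehicle, and 0 with a negative interaction, since each such gene changed by less than 1. The genes lower with cisplatin went from 5 to 4 (Cyp24a1 lost) and those lower in co-treated than in vehicle mice from 5 to 4 (Vdr lost). With the replicate block the counts were 1 higher and 5 lower with cisplatin and 4 higher and 2 lower for co-treated against cisplatin, and no call of a tested gene changed. The replicate numbers gave no clear pairing over the 4 groups: 7 of 31 same-numbered pairs correlated above 0.1, from -0.18 to 0.40. In 62 checks of a library against another group, the best match had its own number in 19. Between vehicle and KW6002 the values were 0.40, -0.15, 0.13, 0.15, and 0.19 for replicates 1 to 5. In both of these groups replicates 1 to 3 are in the 300s and the rest in the 500s. The mean of Cyp27b1 in co-treated mice stayed within 73.3 to 84.2 CPM over its alternatives. All 9 genes passed the filter, but of the pathway lists Cyp3a11, Fgf23, Phex, Dmp1, Pthlh, and Pth2r were too low to be tested, with 5 to 59 counts over all libraries.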
